A study of Homo sapiens with 30 samples.

Results

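DTMYC cells differed from the G401 cells they were made from at most genes when both were kept in the compound dTAG47. G401 is an established line from a malignant rhabdoid tumour of the kidney. In DTMYC cells, an engineered derivative of G401, CRISPR editing had deleted the cells' own MYC gene, and MYC with a degradable tag was expressed from a lentiviral vector in its place. Of 30 samples of the series, 6 of the 12 RNA-seq libraries were chosen by their labels alone, 3 of DTMYC cells and 3 of parental cells, each after 24 h in 500 nM dTAG47. The 6 other RNA-seq libraries, 3 of each line in the solvent DMSO for the same time, gave the companion difference. The remaining samples held PRO-seq and MYC ChIP-seq after 4 h and ATAC-seq after 24 h, from DTMYC cells alone. All cells grew in DMEM with fetal bovine serum, and RNA-seq libraries were made from total RNA after depletion of ribosomal RNA. The labels do not say whether DTMYC cells are 1 clone or a pool, nor whether the 3 libraries of a group came from separate cultures. The p-values below therefore measure only the spread between these libraries.

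MYC is a transcription factor that pairs with MAX and binds DNA at E-boxes, whose core sequence is CACGTG. It is known above all for raising the output of genes of ribosome production, nucleotide synthesis and cell growth. dTAG47 joins the tag, a mutant form of the protein FKBP12, to the ubiquitin ligase subunit cereblon, and the tagged protein is then degraded. Parental cells carry no tagged protein, so they keep their own MYC in the compound. The comparison thus sets cells whose MYC protein can be degraded against cells with their own MYC. It also carries every other difference between an engineered line and its parent, and RNA-seq measures transcripts, not the MYC protein.

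The 3 DTMYC libraries held 28494989, 33158760 and 27854207 counts and the 3 parental libraries held 54633745, 35900247 and 30791296. Of 18132 entries of the table, 13401 had enough counts to be tested, and the common biological coefficient of variation was 0.121. Across these genes, log2 levels correlated at 0.995 to 0.996 between libraries of the same line in dTAG47 and at 0.885 to 0.898 between lines (Pearson). Among the companion libraries, parental DMSO library 3 stood apart. It correlated at 0.981 to 0.988 with the other parental libraries, in dTAG47 or DMSO, and at 0.906 to 0.910 with DTMYC libraries in either medium. It enters the values in dTAG47 only through steps shared by all 12 libraries: the filter, the scaling and the estimate of the spread. Without it 5287 genes were higher and 5838 lower in DTMYC cells in dTAG47, against 5014 and 5218 with it. It also touches each comparison with DMSO below. Levels are given in CPM (counts scaled to a common library size) with TMM library sizes, as the mean ± SD of 3 libraries, and differences as the log2 ratio of DTMYC to parental cells with its standard error. Adjusted p-values come from edgeR's quasi-likelihood test over all genes tested, with a threshold of 0.05.

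MYC transcript checked the labels of the lines. It stood at 1478, 1404 and 1349 CPM in the DTMYC libraries and at 242, 226 and 237 CPM in the parental libraries. The difference was 2.59 ± 0.09 on the log2 scale (edgeR, adjusted p = 1.06e-10), beside 2.54 in DMSO, so DTMYC cells carried more MYC transcript in either medium. Counts of the table do not separate the supplied MYC sequence from that of the cells' own gene. MAX, the partner of MYC, was at 42.0 ± 1.27 CPM in DTMYC and 47.6 ± 0.95 CPM in parental cells (log2 difference −0.18, edgeR adjusted p = 0.0304), and its difference turned to 0.17 with offsets for GC content and length. MYCN, the relative of MYC active in neural tumours, had no count in any of the 6 libraries. SMARCA4, an ATPase of the SWI/SNF remodeler, was lower in DTMYC cells, at 474 ± 24.8 CPM against 843 ± 52.6 CPM (log2 difference −0.83, edgeR adjusted p = 3.46e-06, and −0.43 in DMSO).

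The proteins through which dTAG47 works also differed in transcript level. FKBP1A, which encodes FKBP12, stood at 545, 537 and 526 CPM in DTMYC and at 213, 205 and 198 CPM in parental cells. The groups did not overlap, and the log2 difference was 1.38 ± 0.08, with 1.33 in DMSO. FKBP1A has near-identical copies in the genome, and reads of the supplied tag, a form of FKBP12, could be counted with it; their share was not tested. CRBN, which encodes cereblon, was at 31.3 ± 2.04 CPM against 19.8 ± 1.58 CPM (log2 difference 0.66, edgeR adjusted p = 0.000101), but its sign turned to −0.25 with the GC and length offsets. DDB1, the adaptor that holds cereblon in its ligase, was lower in DTMYC cells (483 against 706 CPM, log2 difference −0.55). Of 12 tested genes of this machinery, 7 (58.3%) were higher and 2 (16.7%) lower in DTMYC cells, beside 37.4% and 38.9% of all genes. With the offsets 5 were higher and 4 lower, beside 39.5% and 31.2% of all genes, and the median of the 12 fell from 0.59 to 0.04.

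Most genes tested, 10232 of 13401 (76.4%), differed between the lines in dTAG47. Of these, 5014 (37.4%) were higher and 5218 (38.9%) lower in DTMYC cells. With at least a 2-fold difference, 2629 genes (19.6%) were higher and 1673 (12.5%) lower, and with upper-quartile scaling these counts were 2141 and 2114. At least 8-fold differences were more often towards lower levels, with 205 genes higher and 457 lower. The 3 libraries of a line did not overlap with the 3 of the other line at 11313 genes (84.4%). The median difference over all genes was −0.03 and the median size of the difference, whatever its sign, was 0.67 on the log2 scale.

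**Figure D1:**
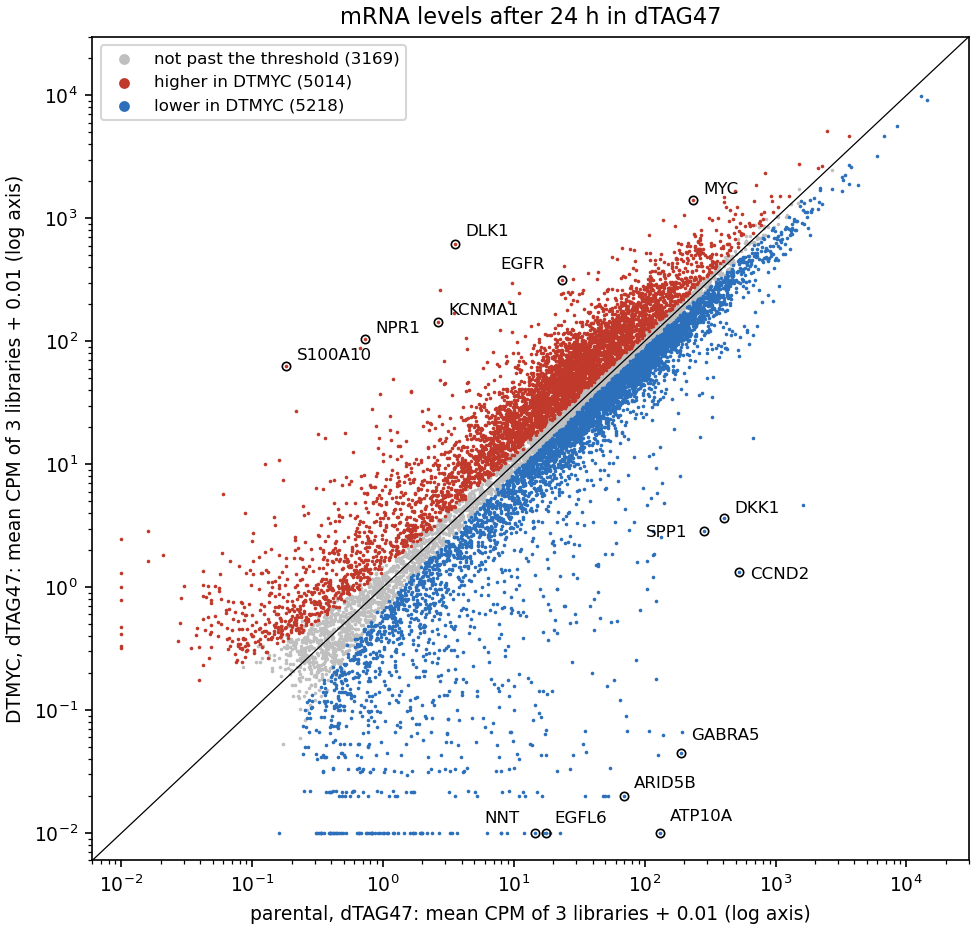
Mean level of each tested gene in parental cells (horizontal axis) against DTMYC cells (vertical axis), both in dTAG47, in CPM plus 0.01 on log axes, with colours for the 5014 genes higher, 5218 lower and 3169 not called. Labelled genes such as ATP10A and GABRA5 lie along the lower edge, where DTMYC libraries had almost no counts, and no matching group lies along the left edge.

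The same lines differed in nearly the same way in DMSO. There 4819 genes (36%) were higher and 4999 (37.3%) lower in DTMYC cells. The differences in the 2 media, which share no library, correlated at 0.959 (Pearson) and 0.934 (Spearman) across 13401 genes, which are not independent replicates. Of the genes higher in dTAG47, 84.4% were also higher in DMSO, which makes 87.9% of those higher in DMSO. For genes lower in DTMYC cells these shares were 85.2% and 89.0%, and 57 genes were called in opposite directions. DLK1, a NOTCH ligand relative active in fetal tissue, had a difference of 7.44 in dTAG47 and 7.26 in DMSO. CCND2, a G1 cyclin, had −8.65 and EGFR, the receptor of epidermal growth factor, had 3.75 in dTAG47, with 3.70 for EGFR in DMSO. Most genes called in dTAG47 were thus called in the same direction between the lines without the compound.

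The line difference moved with the base composition of transcripts. Across 13063 tested genes with an annotated transcript (97.5%), the log2 difference in dTAG47 correlated with GC content at a Spearman rho of −0.518, and at −0.438 in DMSO. Among the 2613 genes with the lowest GC content (29.2 to 40.7%), 78.8% were higher and 8.38% lower in DTMYC cells, with a median difference of 0.99. Among the 2613 with the highest GC content (58.7 to 76.9%), 13% were higher and 62.8% lower, with a median of −0.49. Transcript length moved with the difference in the other direction: the median was −0.36 among the 2615 shortest and 0.52 among the 2612 longest. A fit with offsets for GC content and length, added after this relation was seen, gave 5290 genes higher and 4177 lower, of which 1585 and 1272 by at least 2-fold. Of genes called in both fits, 7263 kept their direction and 509 had the opposite one. Whether base composition had a part in any single result was not tested, and values with these offsets stand beside a list where its median turned sign or a count moved by over 1.5 times.

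**Figure D2:**
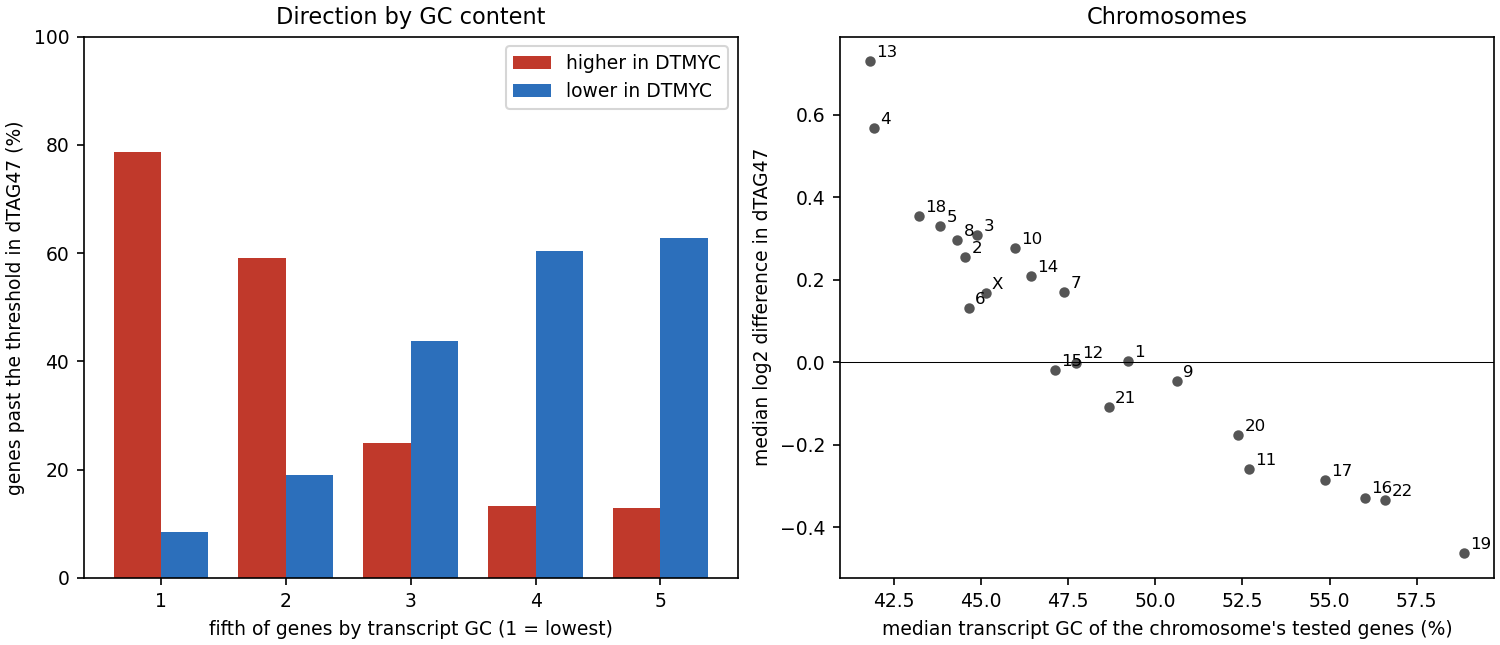
Left, percentage of genes higher and lower in DTMYC cells in dTAG47 in 5 groups of genes by transcript GC content, where the share called higher goes from 78.8% in the lowest group to 13% in the highest. Right, median log2 difference of each chromosome against its median GC content in percent, where chromosomes 13 and 4 lie highest and chromosome 19 lowest.

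Chromosomes broadly followed the same order, with exceptions. Chromosome 6 (44.7% GC), with a median log2 difference of 0.13, lay below chromosome 10 (46.0% GC), with 0.28. Chromosome 13, with a median GC content of 41.8%, had a median log2 difference of 0.73 over 213 genes. Chromosome 4 (41.9% GC) had 0.57 and chromosome 19 (58.9% GC) had −0.46 over 1066 genes. With GC and length offsets the medians of chromosomes 13, 4 and 19 were 0.25, 0.16 and −0.05.

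A set of genes active in parental cells was nearly without transcript in DTMYC cells. Of 9852 genes with at least 5 CPM in parental cells, 41 had no more than 3 counts summed over the 3 DTMYC libraries, and 11 of these had none. The reverse did not occur: of 9784 genes with at least 5 CPM in DTMYC cells, 0 had so few counts in parental cells. With a ceiling of 0.1 CPM instead, 66 genes were nearly silent in DTMYC cells and 1 in parental cells. That gene, the fatty acid transporter CD36, was at 5.74 CPM in DTMYC and 0.0493 CPM in parental cells. With a ceiling of 0.5 CPM the counts were 107 and 13. In DMSO, 40 of the 41 genes also stood below 0.1 CPM in DTMYC cells. These genes were picked by their levels in the same libraries, so their differences are a description.

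ATP10A, a phospholipid flippase on chromosome 15, had no count in any DTMYC library and 132, 129 and 130 CPM in the parental libraries. It was at least 3945-fold lower in DTMYC cells, taking 3 counts over the group as the floor. PDGFC, a ligand of PDGF receptors, had no count against 20.4, 22.9 and 23.8 CPM, at least 666-fold lower. No parental library was near 0 for these genes. PTPRD, a receptor tyrosine phosphatase, had none against 15.9, 18.9 and 21.6 CPM, at least 552-fold lower. NNT, the mitochondrial transhydrogenase that makes NADPH, had none against 12, 15.3 and 15.9 CPM, at least 422-fold lower. The other genes without a count were EGFL6, LPPR5, DCSTAMP, CSMD3, DPYS, NTM and PCDH18.

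Genes with 1 to 3 counts have a ratio whose exact 95% interval covers counting error only. GABRA5, a subunit of GABA-A receptors, stood at 0.0345, 0 and 0.071 CPM in DTMYC cells and at 179, 193 and 195 CPM in parental cells, a ratio of 5655 (1935 to 27424). ARID5B, a DNA-binding cofactor, stood at 0, 0.0297 and 0 CPM against 57.6, 70.6 and 79.5 CPM, a ratio of 6073 (1090 to 239905). LPPR4, a membrane protein of synapses, was at 0, 0.0297 and 0 CPM against 44.1, 54.1 and 60.4 CPM, a ratio of 4643 (833 to 183408). NTNG1, an axon guidance protein, showed 0, 0.0297 and 0 CPM against 48.2, 48.7 and 53.6 CPM, a ratio of 4511 (809 to 178219). For all of them every parental library lay far above every DTMYC library, and the spread among parental libraries was small beside the gap.

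Several silent genes were neighbours. Of the 41, 13 lay in 5 groups with less than 1 Mb between adjacent members. The share of all tested genes with such a neighbour was not counted. SNX7, LPPR5 and LPPR4 lay at chr1:99127236-99775146 in GRCh37, with no other tested gene between them. TMEM26, ARID5B and RTKN2 lay at chr10:63166401-64028466, and the only other tested gene there, C10orf107, stood at 0 CPM in all DTMYC libraries and at 0.56, 0.222 and 0.494 CPM in parental cells. SHROOM2, WWC3 and CLCN4, at chrX:9754496-10205700, stood at 12.1, 54.5 and 11 CPM in parental cells. PKNOX2 with FEZ1 on chromosome 11 and DPYS with DCSTAMP on chromosome 8 were the other groups. DCSTAMP lies within the span of DPYS, so these 2 genes can share reads. ATAC-seq peaks of DTMYC cells in dTAG47, which mark open chromatin, lay in the 3 libraries in numbers of 7, 4 and 7 over the first region. They numbered 7, 7 and 8 over the second and 2, 0 and 1 over that of chromosome X. Over the span of the single genes, 25 of 41 had a peak in all 3 libraries and 9 had none in any. Copy number was not measured, and a region without a peak is not shown to be deleted.

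Other readouts of DTMYC cells describe the same genes. They come from the line in which the genes were chosen as silent, so they are no independent support and were not tested. An ATAC-seq peak lay within 1000 bases of a start site in all 3 dTAG47 libraries for 16 of 41 silent genes (39%), against 81.5% of all genes tested, and in at least 1 library for 28 (68.3%, against 89.6%). Among genes at least 2-fold lower in DTMYC cells the share was 59.9%, and among those at least 2-fold higher it was 82.0%. Among genes at least 8-fold higher it was 50.5%, so a low share was not limited to genes that were lower. In nascent transcription, 24 of 40 silent genes in the PRO-seq table (60%) had fewer than 10 gene body reads summed over both dTAG47 libraries, against 6.68% of all genes. The other 16 had more, such as ZNF827, a zinc finger gene, with 57 and 106 reads. The DNA before the start sites of 2 silent genes without a peak is shown next, to be set beside that of 2 genes high in DTMYC cells.

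The 250 bases upstream of the RefSeq start of EGFL6, a secreted EGF-like protein (chrX:13587470-13587719, plus strand), and of PCDH18, a protocadherin (chr4:138453649-138453898, minus strand), had no ATAC-seq peak within 1000 bases in any of the 3 libraries. They hold 10 and 8 CG dinucleotides, written in capitals, and sequences of the GRCh38.p14 RefSeq table were located in GRCh37 by exact match.
EGFL6: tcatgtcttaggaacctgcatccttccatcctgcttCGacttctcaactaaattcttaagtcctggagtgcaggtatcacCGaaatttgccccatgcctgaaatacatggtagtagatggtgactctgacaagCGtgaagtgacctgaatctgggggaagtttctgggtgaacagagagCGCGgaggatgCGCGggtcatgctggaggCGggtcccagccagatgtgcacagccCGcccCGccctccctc
PCDH18: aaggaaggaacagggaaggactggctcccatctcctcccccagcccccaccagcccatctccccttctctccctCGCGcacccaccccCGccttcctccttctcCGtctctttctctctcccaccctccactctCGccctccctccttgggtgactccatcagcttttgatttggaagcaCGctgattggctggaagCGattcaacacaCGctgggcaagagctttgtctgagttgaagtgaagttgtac
EGFL6 stood at 0 CPM in all 3 DTMYC libraries and at 15.7, 18.2 and 18.7 CPM in parental cells, at least 520-fold lower. PCDH18 stood at 0 CPM and at 7.85, 7.92 and 10.6 CPM, at least 259-fold lower. The choice of these regions, and of those that follow, was made with their values known.

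The corresponding bases of S100A10, a partner of annexin A2 (chr1:151966336-151966585, minus strand), and of NPR1, the receptor of atrial natriuretic peptide (chr1:153650914-153651163, plus strand), hold 24 and 20 CG dinucleotides, again in capitals. A peak lay at these start sites in 2 and in 3 of the ATAC-seq libraries.
S100A10: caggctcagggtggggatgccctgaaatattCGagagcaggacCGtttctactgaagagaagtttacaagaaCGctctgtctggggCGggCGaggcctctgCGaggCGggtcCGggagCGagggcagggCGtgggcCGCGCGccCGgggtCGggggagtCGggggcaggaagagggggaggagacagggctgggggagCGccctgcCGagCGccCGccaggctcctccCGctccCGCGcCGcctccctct
NPR1: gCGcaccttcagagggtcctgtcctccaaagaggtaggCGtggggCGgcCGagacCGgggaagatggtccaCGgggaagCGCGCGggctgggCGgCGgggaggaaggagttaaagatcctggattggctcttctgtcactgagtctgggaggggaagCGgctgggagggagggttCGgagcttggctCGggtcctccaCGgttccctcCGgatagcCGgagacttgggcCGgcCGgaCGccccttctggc
S100A10 stood at 59.4, 62.9 and 65.4 CPM in DTMYC and at 0.271, 0.111 and 0.132 CPM in parental cells, a log2 difference of 8.36 ± 0.18 (edgeR, adjusted p = 4.51e-12) with 8.30 in DMSO. NPR1 stood at 108, 104 and 102 CPM against 0.741, 0.667 and 0.758 CPM, a log2 difference of 7.17 ± 0.13 with 6.63 in DMSO. These chosen promoters do not stand for their classes. In promoters of 300 bases, the median CG count was 26 for 27 silent genes with a RefSeq promoter and 26 for all genes tested. It was 20 for genes at least 8-fold higher in DTMYC cells. Over all genes tested the ATAC-seq share and the CG count of a promoter were not compared by a test.

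Many genes were far lower in DTMYC cells without being silent. DKK1, a secreted WNT antagonist, stood at 3.97, 3.24 and 3.80 CPM in DTMYC and at 396, 412 and 411 CPM in parental cells (log2 difference −6.79 ± 0.11). CCND2, a G1 cyclin on the list of MYC targets, stood at 1.07, 1.40 and 1.45 CPM against 470.5, 544 and 573 CPM (−8.65 ± 0.18). SPP1, the matrix protein osteopontin, was at 3.21, 2.29 and 3.09 CPM against 258, 289 and 303 CPM (−6.64 ± 0.18). In each case the groups lay apart by a factor far above the spread among libraries. The 3 genes that follow were picked with their values known. BTBD11, an ankyrin-repeat protein, stood at 0.0559 ± 0.073 CPM against 192 ± 5.28 CPM. TP53I11, named as a p53-induced gene, stood at 16.5 ± 0.38 CPM against 667 ± 10.5 CPM (−5.34). TMSB4X, which binds actin monomers and has many near-identical copies so that its value is uncertain, stood at 4.62 ± 0.27 CPM against 1635 ± 58.8 CPM (−8.47).

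**Figure D3:**
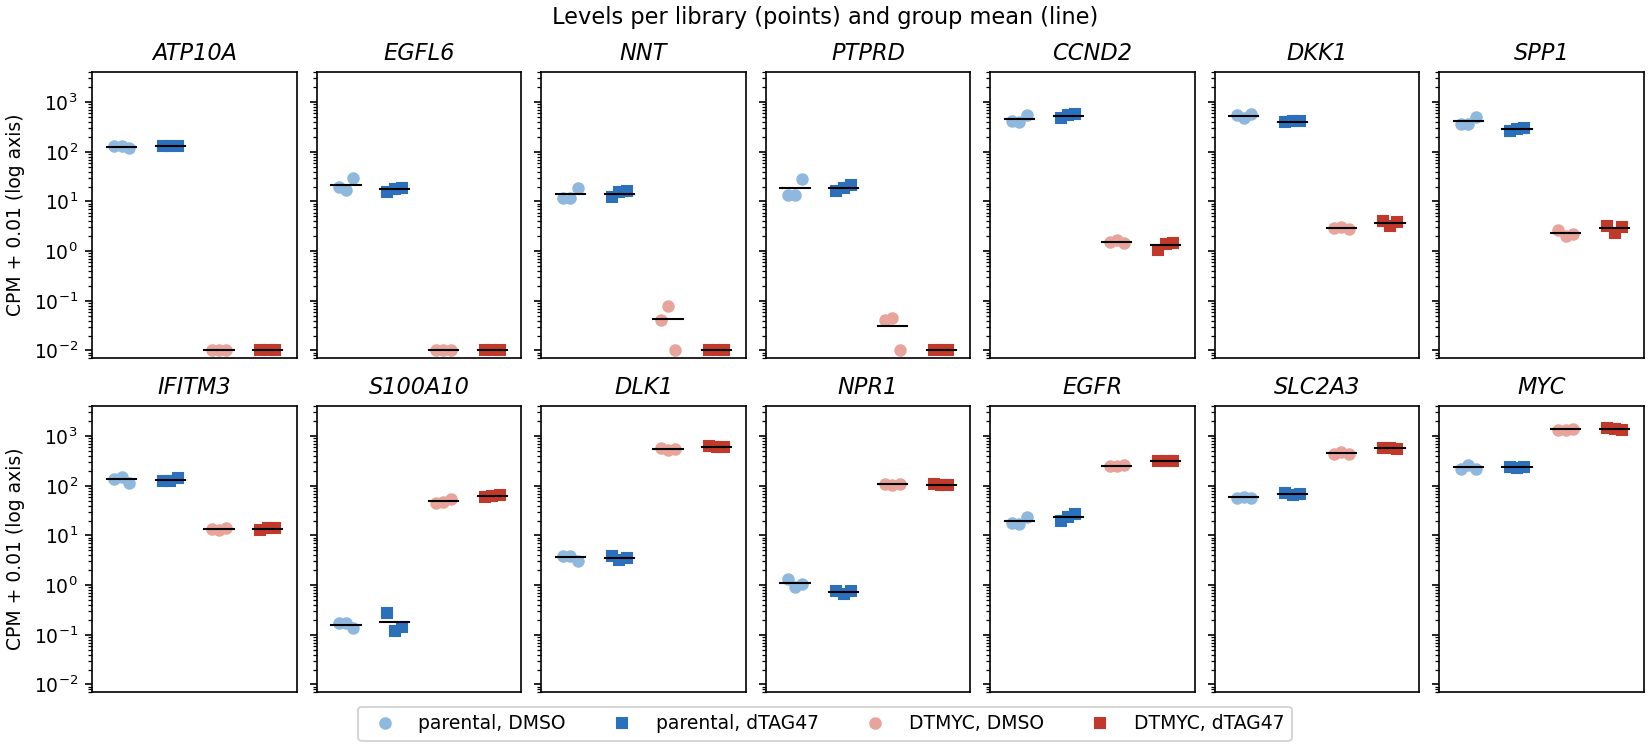
Level of 14 named genes in every RNA-seq library, in CPM plus 0.01 on a log axis, by line and treatment, with a point per library and a line at the group mean. For each gene the 3 DTMYC libraries in dTAG47 lie apart from the 3 parental libraries in dTAG47, and the DMSO libraries of a line lie near its dTAG47 libraries.

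The genes with the largest higher levels in DTMYC cells were mostly near 0 in parental cells. DLK1 stood at 642, 614 and 599 CPM in DTMYC and at 3.87, 3.23 and 3.53 CPM in parental cells (log2 difference 7.44 ± 0.11, edgeR adjusted p = 2.9e-13). FLRT2, a membrane adhesion and guidance protein, stood at 86.4, 85.0 and 91.9 CPM against 0.38, 0.695 and 0.89 CPM (7.15 ± 0.27). ALPK2, an alpha-kinase, stood at 263 ± 9.24 CPM against 2.73 ± 0.29 CPM (6.60). KCNMA1, the large-conductance potassium channel, stood at 147, 143 and 144 CPM against 2.44, 2.67 and 2.70 CPM (5.80 ± 0.10). For these 4 genes the lowest DTMYC library lay more than 10-fold above the highest parental library. GATA6, a transcription factor of endoderm and heart, stood at 17.7 ± 1.36 CPM against 0.306 ± 0.15 CPM (5.88). TH, the rate-limiting enzyme of dopamine synthesis, stood at 10.1 ± 0.28 CPM against 0.116 ± 0.055 CPM (6.41), SGMS2, a sphingomyelin synthase, had 6.03 and ST18, a zinc finger factor, had 7.03. Among abundant genes, FGF2, a fibroblast growth factor, stood at 411 ± 29.6 CPM against 24.3 ± 2.83 CPM (4.08) and MALT1, a signalling protease, at 300.3 ± 18.1 CPM against 9.65 ± 1.45 CPM (4.97). These last 2 were chosen after their values were seen.

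Lists of genes with a shared role were counted beside the background of 37.4% higher and 38.9% lower. Counts with the GC and length offsets have their own background, 39.5% higher and 31.2% lower. The lists were chosen with earlier results of these data known, so no list was tested as a set. For every list the median was the same to the digits printed when members without counts were set at their bound. Upper-quartile scaling lowered the median of all genes to −0.18, and list medians moved with it.

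**Figure D4:**
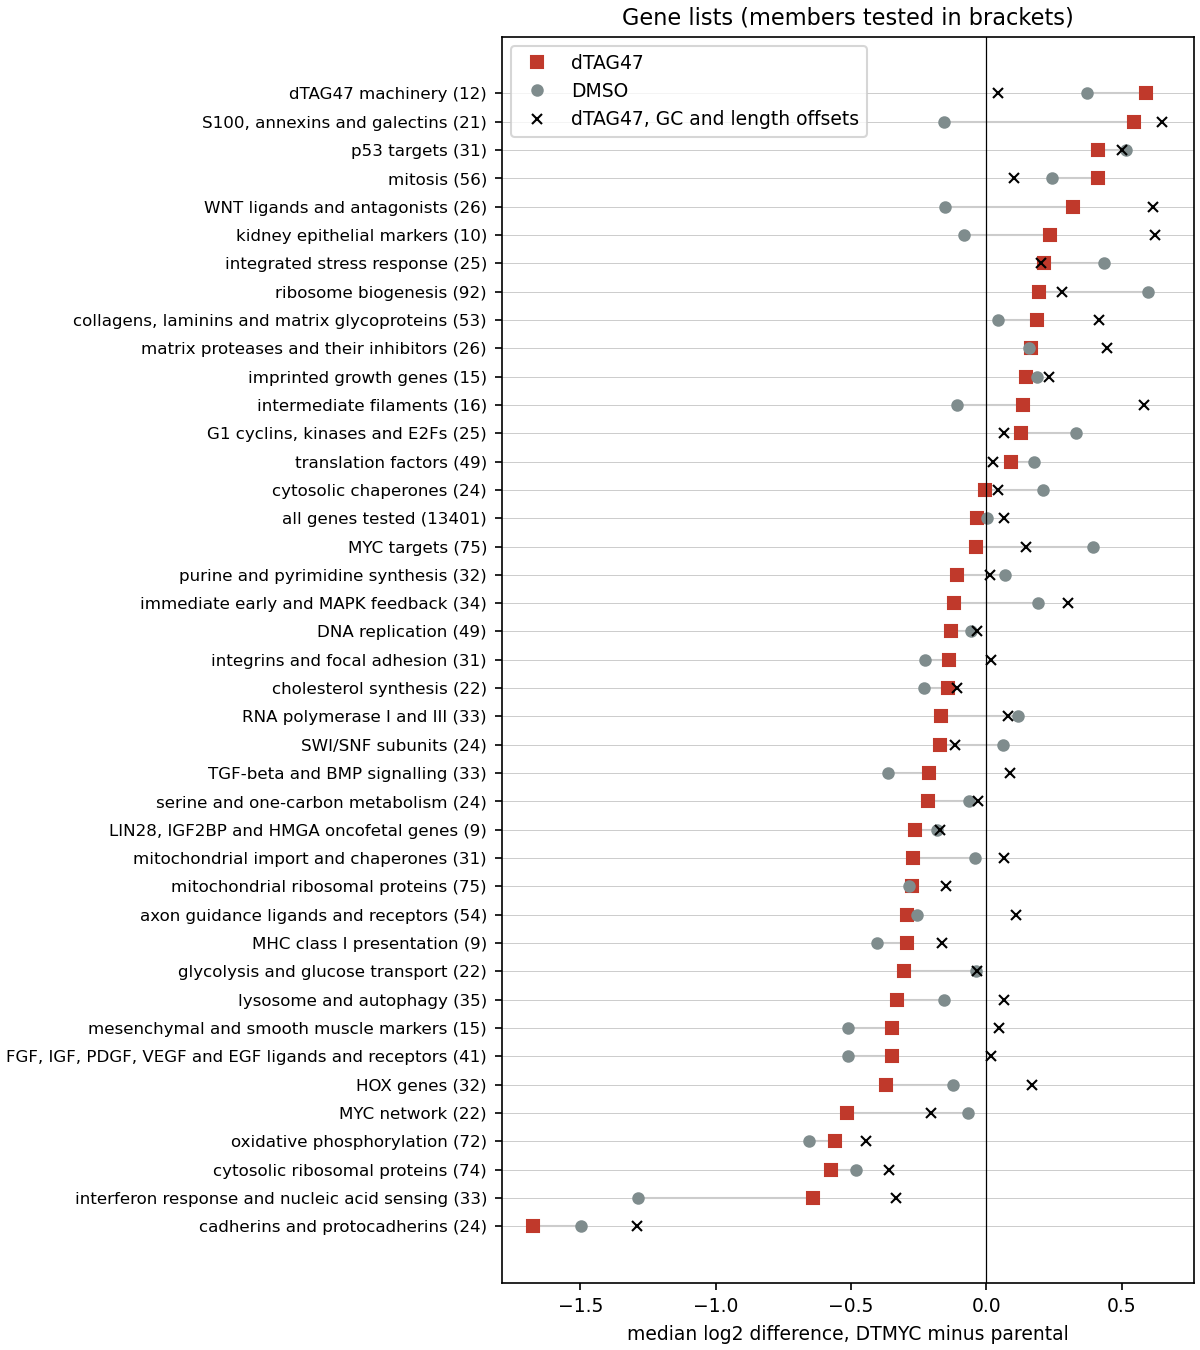
Median log2 difference between DTMYC and parental cells of 40 gene lists with at least 9 tested members and of all genes, in dTAG47 (squares), in DMSO (circles) and in dTAG47 with offsets for GC content and length (crosses). Cadherins and protocadherins lie lowest in all 3 settings, and lists whose cross lies on the other side of 0 from the square change sign with the offsets.

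Genes of protein synthesis split by role. Of 92 ribosome biogenesis genes, whose products build ribosomes in the nucleolus, 44 (47.8%) were higher and 23 (25%) lower in DTMYC cells, with a median difference of 0.20 in dTAG47 and 0.60 in DMSO. With the offsets 56 were higher and 10 lower. HEATR1, a factor of ribosomal RNA processing, stood at 316, 327 and 333 CPM against 103, 112 and 122 CPM (log2 difference 1.54 ± 0.13). NMD3, the export adaptor of the large subunit, had 1.30, and NHP2, a protein of small nucleolar RNPs, had −1.11. Of 74 cytosolic ribosomal proteins, 6 were higher and 55 (74.3%) lower, with a median of −0.57, −0.48 in DMSO and −0.36 with GC and length offsets. RPS14 stood at 821, 825 and 851 CPM against 1805, 1821 and 1731 CPM (−1.10 ± 0.09), and RPL41 had −1.29. These genes have many near-identical copies, so single values are uncertain. Their summed level was 49483 to 51357 CPM in DTMYC and 70656 to 73945 CPM in parental cells. Of 75 mitochondrial ribosomal proteins, 17 were higher and 42 (56%) lower, with a median of −0.27. Of 49 translation factors 22 were higher and 22 lower, and 17 and 13 with the offsets. ABCE1, which recycles ribosomes, had 1.39 and EEF1A2, an elongation factor, had −2.37, at 10.3 against 53.1 CPM. RNA polymerase I and III genes counted 12 higher and 14 lower of 33, with a median of −0.17. With the offsets 14 were higher and 6 lower, and the median turned to 0.08.

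MYC targets lay close to the background in dTAG47 by the shares called, but few were lower by at least 2-fold. Of 75 tested targets, 28 (37.3%) were higher and 27 (36%) lower, shares near the background, with a median of −0.04 in dTAG47. By at least 2-fold, 12 (16%, against 19.6% of all genes) were higher and 1 (1.33%, against 12.5%), CCND2, was lower. In DMSO the median was 0.39, with 44 higher and 16 lower, and 63 of 75 had a more negative difference in dTAG47 than in DMSO, as had 40.9% of all genes. Their summed level was 24974 to 25032 CPM in DTMYC and 28228 to 28781 CPM in parental cells in dTAG47. PTMA, prothymosin, which has many copies, was at 782 against 1311 CPM (log2 difference −0.74), and EIF2S1, a subunit of initiation factor eIF2, was at 194 against 88.0 CPM (1.14). With the offsets the median turned to 0.15, with 37 higher (49.3%, against 39.5% of all genes) and 22 lower (29.3%, against 31.2%).

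Genes of oxidative phosphorylation, the respiratory chain and ATP synthase, were lower in number and in sum. Of 72 tested, 8 were higher and 56 (77.8%) lower, with a median of −0.56, −0.65 in DMSO and −0.45 with the offsets. ATP5I, a subunit of ATP synthase, stood at 20.4, 18.5 and 23.7 CPM against 70.0, 72.0 and 71.7 CPM (log2 difference −1.77 ± 0.11). NDUFS6, of complex I, had −1.29, while CYCS, cytochrome c, was higher at 401, 415 and 493 CPM against 150, 168 and 171 CPM (1.42 ± 0.10). The other metabolic lists were mixed. In glycolysis and glucose transport, 7 of 22 were higher and 13 lower (6 and 8 with the offsets), with SLC2A3, the glucose transporter GLUT3, at 588, 579 and 550.5 CPM against 70.9, 64.5 and 67.7 CPM (3.08 ± 0.07). PFKP, a phosphofructokinase, had 1.31 and ALDOC, an aldolase, had −1.80. In cholesterol synthesis 7 of 22 were higher and 11 lower. MSMO1, a sterol oxidase, had a difference of 2.68. SREBF2, the regulator of the pathway, had −0.66. PHGDH, the first enzyme of serine synthesis, stood at 126 against 309 CPM (−1.30), in a list with 8 of 24 higher and 10 lower.

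Cell cycle lists differed from each other. Of 56 mitosis genes 31 (55.4%) were higher and 17 lower, with a median of 0.41, 0.24 in DMSO and 0.10 with the offsets. CENPI, a centromere protein, had a difference of 1.36, NCAPG, of condensin, had 1.28 and KIF22, a chromokinesin, had −0.84. Of 49 DNA replication genes 18 were higher and 21 lower, and 11 and 19 with the offsets. The helicase subunits MCM3 and MCM7 had −0.84 and −0.93, and the ligase LIG1 had −1.16, at 63.6 against 142 CPM. Among cyclins and their kinases, CDK6 stood at 233, 244 and 262 CPM against 20.1, 22.2 and 28.5 CPM (3.39 ± 0.24), opposite to CCND2. CCND1 stood at 506 ± 2.33 against 291 ± 2.79 CPM (0.80). Both CDK6 and the D cyclins act at the start of the cycle, where the kinase needs a D cyclin. Of the CDK inhibitors, CDKN1A, which encodes p21, was at 226 ± 9.07 against 158 ± 7.25 CPM (0.51, edgeR adjusted p = 0.000197). CDKN2C stood at 35.1 against 117 CPM (−1.74) and CDKN1C, an imprinted gene, at 0.669 against 8.09 CPM (−3.59).

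Of 31 p53 targets 18 (58.1%) were higher and 7 lower, with a median of 0.41, 0.52 in DMSO and 0.50 with the offsets. C12orf5, the glycolysis regulator TIGAR, had a difference of 1.73 and PLK2, a polo-like kinase, had 3.13. Among 25 genes of the integrated stress response 13 were higher and 10 lower, and 12 and 5 with the offsets. ATF3, a stress-induced factor, was at 74.9 against 25.5 CPM (1.56), whereas NUPR1 stood at 139, 134 and 129 CPM against 733, 728 and 706 CPM (−2.43 ± 0.11). Of 22 genes of the MYC network 6 were higher and 13 lower, with a median of −0.51, and −0.21 with the offsets. MXD3, a partner of MAX that opposes MYC, stood at 10.1 against 29.97 CPM (−1.57), and RUVBL2, a helicase that binds MYC, had −0.93. Of 24 SWI/SNF subunits 8 were higher and 11 lower, with −1.09 for SMARCD3 and −1.32 for DPF1.

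Genes of adhesion, matrix and surface differed in both directions. Of 24 cadherins and protocadherins, which join cells, 6 were higher and 14 lower, 13 of these by at least 2-fold (54.2%, against 12.5% of all genes). Their median was −1.67, −1.50 in DMSO and −1.29 with the offsets, whereas their summed level was higher in DTMYC cells, 479 to 496 against 402 to 461 CPM. CDH13, which lacks a transmembrane part, stood at 0.0345, 0 and 0 CPM against 7.05, 8.42 and 8.83 CPM, a ratio of 717 (129 to 28366). CDH1, epithelial cadherin, had −3.40, at 0.463 against 4.92 CPM, and CDH4 had −1.66. Matrix genes were even in number, with 22 of 53 higher and 21 lower. SPARC, a collagen-binding glycoprotein, stood at 53.1, 50.7 and 50.6 CPM against 348, 333 and 323 CPM (−2.70 ± 0.08), and FBN2, a fibrillin, had −4.46. COL1A1, the chain of type I collagen, stood at 2382, 2327 and 2241 CPM against 850.1, 810.0 and 854 CPM (1.47 ± 0.21). VCAN, a proteoglycan chosen after its value was seen, had 3.28. MMP14, a membrane-bound collagenase, stood at 38.7, 34.3 and 32.7 CPM against 335, 323 and 332 CPM (−3.23 ± 0.11). CD9, a tetraspanin, stood at 261 ± 3.36 against 33.9 ± 0.84 CPM (2.94).

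S100 proteins, annexins and galectins, which bind calcium, membranes or sugars, counted 11 of 21 higher (52.4%) and 6 lower. By at least 2-fold, 8 were higher (38.1%, against 19.6% of all genes) and none of 21 was lower (12.5% of all genes). The median was 0.55 in dTAG47, −0.16 in DMSO and 0.65 with the offsets. LGALS3 had 1.31 and ANXA5 had 1.02, at 563 against 277 CPM, beside the 8.36 of S100A10.

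Ligands and receptors split within each pathway. Of 26 WNT ligands and antagonists 13 were higher and 10 lower. SOST, the WNT antagonist sclerostin, stood at 255, 244 and 231 CPM against 30.9, 30.7 and 32.7 CPM (log2 difference 2.95 ± 0.08), the reverse of the antagonist DKK1. WNT2B, a ligand, had 2.08. Among 33 genes of TGF-beta and BMP signalling 9 were higher and 17 (51.5%) lower, with a median of −0.21. With the offsets 12 were higher and 9 lower, and the median turned to 0.09. LTBP1, which stores the latent ligand in matrix, stood at 876, 881 and 845 CPM against 169, 170.4 and 173 CPM (2.34 ± 0.08). The co-receptors TGFBR3 and ENG had −3.58 and −3.13. Of 41 ligands and receptors of the FGF, IGF, PDGF, VEGF and EGF families 13 were higher and 21 (51.2%) lower, with a median of −0.35 that turned to 0.02 with the offsets and a higher summed level in DTMYC cells. EGFR stood at 313, 320 and 316 CPM against 19.96, 23.7 and 26.9 CPM (3.75 ± 0.13). NRG1, a ligand of the related receptors ERBB3 and ERBB4, stood at 0, 0.0892 and 0.0355 CPM against 13.4, 13.96 and 13.9 CPM (−8.18). IGFBP2, a binding protein of insulin-like growth factors, was at 0.276, 0.208 and 0.248 CPM against 90.5, 83.2 and 83.0 CPM (−8.44 ± 0.24). In axon guidance 18 of 54 were higher and 24 lower, 17 of them by at least 2-fold (31.5%, against 12.5% of all genes), and the median of −0.29 turned to 0.11 with the offsets. The semaphorin receptors NRP2 and PLXNA2 had −7.44 and −5.60. The ligand SEMA3C, chosen after its value was seen, had 3.50.

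Interferon response genes were mostly lower. Of 33 tested, 4 were higher and 22 (66.7%) lower, 14 of these by at least 2-fold (42.4%, against 12.5% of all genes). The median was −0.64 in dTAG47, −1.29 in DMSO and −0.33 with the offsets, which left 8 higher and 17 (51.5%) lower. IFITM3, which blocks virus entry, stood at 13, 14 and 14.1 CPM against 127, 127 and 141 CPM (log2 difference −3.27 ± 0.11). IFITM2 stood at 0.59 ± 0.23 against 29.6 ± 1.09 CPM (−5.65), and as these neighbours are close copies their split is uncertain. OAS3, a sensor of double-stranded RNA, had −4.45. B2M, the light chain of MHC class I, was at 236 against 159 CPM (0.57), a sign that turned to −0.16 with the offsets.

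Patterning and fetal genes gave a mixed account. Of 32 HOX genes 9 were higher and 15 (46.9%) lower, and the median of −0.37 turned to 0.17 with the offsets, with 15 higher and 10 lower. HOXD3 stood at 0.0345, 0 and 0 CPM against 4.27, 5.45 and 5.50 CPM, a ratio of 447 (79.95 to 17692). HOXC13 had −1.89, at 18.2 against 67.3 CPM. GATA2, a transcription factor of blood and endothelium chosen after its value was seen, stood at 8.94, 8.09 and 6.88 CPM against 185, 183 and 191 CPM (−4.55 ± 0.12). GPC3, a fetal proteoglycan, was at 289 against 668 CPM (−1.21), and HMGA1, a chromatin protein of fetal cells, at 1129 against 1867 CPM (−0.73). Of lysosome and autophagy genes 7 of 35 were higher and 18 lower, with a median of −0.33. With the offsets 12 were higher and 14 lower, and the median turned to 0.07. The proteases CTSF and CTSB had −2.59 and 1.10.

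Markers of other cell types moved with the lines as well. Summed over 10 neuronal markers found in the table, the level was 8.72 to 9.005 CPM in DTMYC and 13.4 to 15.5 CPM in parental cells, and of 6 tested none was higher and 4 were lower in DTMYC cells (1 and 3 with the offsets). SYN1 (0.612 against 2.22 CPM), SYT1 (0.106 against 2.34 CPM) and GAP43 (0.0118 against 0.884 CPM) made up most of the gap. ELAVL4 was at 0 in all 6 libraries, and DCX and STMN2 were at 0 in parental and no higher than 0.0345 CPM in DTMYC libraries. The haematopoietic markers summed to 1.455 to 1.79 and 0.796 to 0.945 CPM, with PTPRC and CD3E at 0 in all 6 libraries. Of 10 tested kidney epithelial markers 5 were higher and 4 lower, and the list summed to 5831 to 6580 CPM in DTMYC and 4642 to 4962 CPM in parental cells. Nearly all of this was the keratins KRT8 (4708 against 3646 CPM) and KRT18 (1514 against 1079 CPM), while PAX2 was at 27.1 and 42.1 CPM, CDH1 and EPCAM were lower in level in DTMYC cells and PAX8 was at 0.822 and 0.034 CPM. UMOD, made in the nephron, was at or near 0. VIM, the mesenchymal filament vimentin, was at 684 ± 7.06 and 719 ± 33.5 CPM (log2 difference −0.07, edgeR adjusted p = 0.325), and TAGLN, of smooth muscle, was at 117 and 288 CPM (−1.30). Of 15 tested mesenchymal and smooth muscle markers 6 were higher and 8 lower, with a median of −0.35 that turned to 0.05 with the offsets. Their sum was higher in DTMYC cells, 4635 to 4873 against 2815 to 2973 CPM, and COL1A1 (2317 against 838 CPM) and COL1A2 (1385 against 690 CPM) made up more than the gap. The part of these genes in other results was not tested.

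Histone genes of the large cluster on chromosome 6 were lower almost without exception, and this set was chosen after the values of its region were seen. Of 49 tested genes of the cluster, 47 were lower, 43 by at least 2-fold, and 1 was higher. These replication-dependent histones package newly made DNA, and most of their transcripts lack a poly(A) tail, so they are retained in RNA depleted of ribosomal RNA. Their summed level was 4455, 4428 and 5018 CPM in DTMYC and 18003, 17633 and 17796 CPM in parental cells. The median difference was −1.99 in dTAG47, −2.01 in DMSO and −1.82 with the offsets. HIST1H1B, a linker histone, stood at 288, 266 and 292 CPM against 1068, 1057 and 1049 CPM (log2 difference −1.91 ± 0.08). HIST1H4B, a core histone gene, had −2.72, and the single higher member, HIST1H1A, stood at 32.9 against 25.4 CPM (0.37). Several of these genes are near-identical, so single values are uncertain. Outside the cluster, HIST4H4 on chromosome 12 had −1.92.

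Few genes had a line difference in dTAG47 that departed from the one in DMSO. The interaction was called at 159 genes (1.19%), more positive in dTAG47 at 80 (0.597%) and more negative at 79 (0.59%), with a smallest adjusted p of 0.00523. At an unadjusted p under 0.05 there were 2574 genes. The count depended on which libraries were used and rose most without parental DMSO library 3. Without that library 1122 genes (8.3%) were more positive and 1295 (9.58%) more negative, and these held all 159 in the same direction. Without parental DMSO library 2 the counts were 241 and 308. Leaving out any single library of DTMYC cells, or of parental cells in dTAG47, left between 1 and 11 positive and between 4 and 17 negative genes. At 33 of the 159 genes the lines were not called different in dTAG47.

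Among genes more negative in dTAG47 were several of ribosome production. RRP1B, a nucleolar protein, was at 267 ± 4.91 CPM in DTMYC and 268 ± 14.4 CPM in parental cells in dTAG47 (log2 difference −0.01), against 0.67 in DMSO, an interaction of −0.67 (edgeR, adjusted p = 0.00848). USP36, a nucleolar deubiquitinase, had −0.02 in dTAG47 and 0.78 in DMSO. MYBBP1A, which binds RNA polymerase I, had 0.15 and 0.91, and NOP56, a core protein of small nucleolar RNPs, had −0.15 and 0.41. Of 92 ribosome biogenesis genes 6 had a negative and none a positive interaction, against 0.59% and 0.597% of all genes, and 61 (66.3%, against 9.58% of all genes) were negative without parental DMSO library 3. Of 75 MYC targets 10 were negative and none positive, and 42 (56%, against 9.58%) were negative without that library. TERT, the catalytic part of telomerase, stood at 7.82 ± 0.54 against 3.12 ± 0.37 CPM in dTAG47 (1.31), with 2.35 in DMSO and an interaction of −1.04 (edgeR, adjusted p = 0.0427). DDN, a cytoskeletal protein of podocytes and neurons, had −0.75 in dTAG47 and 0.45 in DMSO, and NEFH, a neurofilament, had −1.85 and −0.74. PPARGC1B, a coactivator of mitochondrial genes, had 0.81 and 1.65, HK2, a hexokinase, had 0.59 and 1.15, and TFAP4, an E-box binding factor, had −0.45 and 0.25.

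Genes more positive in dTAG47 included calcium-binding, WNT and surface proteins. SOST had 2.95 in dTAG47 and 2.17 in DMSO (interaction 0.79, edgeR adjusted p = 0.00828) and DKK1 had −6.79 and −7.52 (0.72, adjusted p = 0.0385). ANXA1, an annexin, had 0.85 and 0.00, and LGALS1, a galectin, had −0.13 and −1.03. CDKN2C had −1.74 and −2.37, and TM7SF2, a sterol reductase, had −0.81 and −1.88. Of 21 S100 proteins, annexins and galectins 4 were positive and none negative, and 12 (57.1%, against 8.3% of all genes) were positive without parental DMSO library 3. SULT1A1, a sulfotransferase with close copies, stood at 3.55 against 23.6 CPM in dTAG47 (−2.73), with −4.15 in DMSO.

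**Figure D5:**
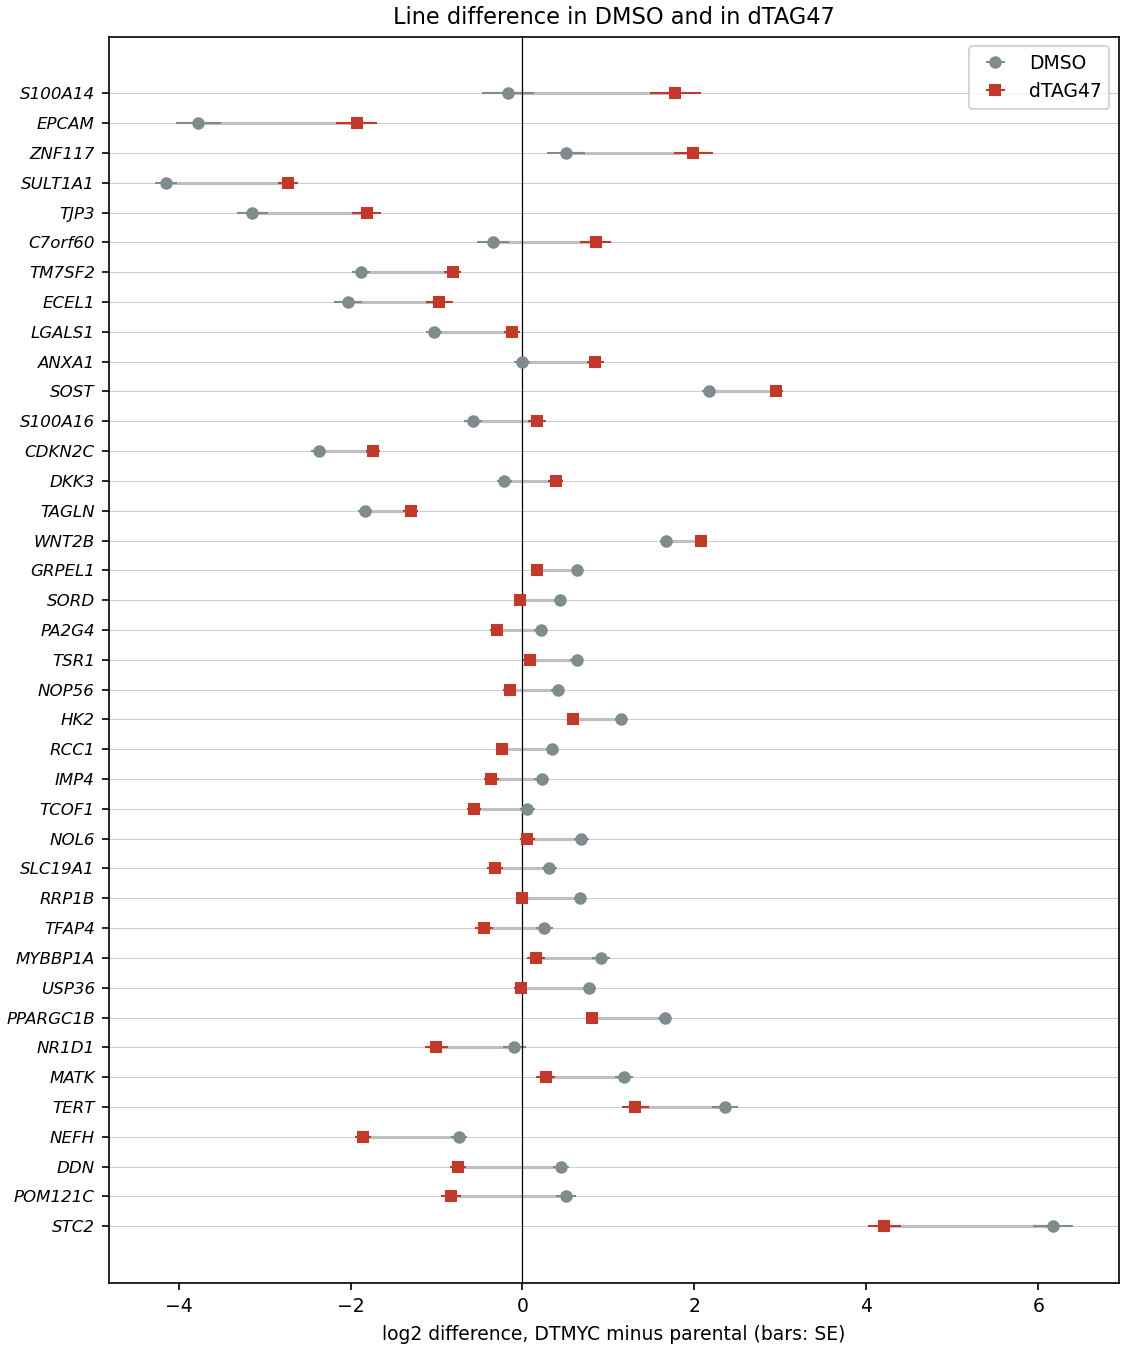
Log2 difference between DTMYC and parental cells (horizontal axis) in DMSO (circles) and in dTAG47 (squares), with standard errors. Each row is a gene, for 39 of the 40 genes with a called interaction that are named. DKK1 is not drawn, and genes whose square lies to the left of the circle, such as USP36 and RRP1B, had a more negative difference in dTAG47.

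MYC-bound genes could be set beside the line difference, since MYC ChIP-seq was made in the DTMYC cells. A region with a peak in both DMSO libraries lay within 1000 bases of a start site of 1053 tested genes. Of these, 44% were higher and 33.6% lower in DTMYC cells in dTAG47, with a median of 0.12, beside 37.3% and 39.4% of 11989 genes without such a region. Bound genes were seldom lower by at least 2-fold (3.13%, against 13.1% of the others), while 19.9% and 19.8% were higher by as much. The regions come from DTMYC cells alone, so genes silent in that line could hardly enter the bound set. It held 0 of 41 silent genes and 0 of 449 genes at least 8-fold lower, so the low share is a description. Bound genes were also more abundant, with a median level of 76.7 against 25.7 CPM. The interaction was below 0 at 57.9% of bound and 38.8% of other genes, and of its calls 20 were negative and 2 positive at bound genes, 58 negative and 78 positive at the others. The E-box CACGTG, which reads the same on both strands, was searched in 300 bases about the midpoint of each region. It was found at 357 of 1053 bound genes (33.9%) and at 10 of the 20 with a negative interaction (50%), and at 34.3% of bound genes higher and 32.2% lower in DTMYC cells. Of 35116 RefSeq promoters of the same length, 7.26% hold it.

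The E-box nearest to the midpoint of the whole region is shown for 8 bound genes with a negative interaction, as 30 bases of the plus strand of GRCh37 with the E-box in capitals. They lie at chr17:4458322-4458351 for MYBBP1A, chr20:2633485-2633514 for NOP56, chr2:75062136-75062165 for HK2, chr21:45079756-45079785 for RRP1B, chr17:2239198-2239227 for TSR1, chr17:76836906-76836935 for USP36, chr5:149110364-149110393 for PPARGC1B and chr16:4322375-4322404 for TFAP4. They were chosen after their values were seen, and a match is a description of the sequence. From the midpoint, the E-box lay 35 bases away for PPARGC1B, 74 for MYBBP1A and 100 for HK2. It lay 194 bases away for RRP1B, 214 for USP36, 298 for TFAP4, 380 for TSR1 and 382 for NOP56. The E-boxes from RRP1B on lie outside the 300 bases searched above, so their genes are not among the 10 counted there.
MYBBP1A: caggttcgcgacCACGTGcccccagtctca
NOP56: caggtgctgttgCACGTGctgtttgagcac
HK2: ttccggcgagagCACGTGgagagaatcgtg
RRP1B: gaatgcggcttcCACGTGttgtcgtgacac
TSR1: ctgcacgctcgaCACGTGctctagggctat
USP36: cggcgcctcacaCACGTGtcaccgcgacgc
PPARGC1B: ctgccgtactttCACGTGgacttgtggccc
TFAP4: ctgctgcagaacCACGTGggtctgtttgca
The region of TFAP4 had the authors' scores of 415 and 258 in the DMSO libraries numbered 1 and 3 and held 4 copies of CACGTG, and that of HK2 had scores of 529 and 217 and 2 copies. The region of TSR1, a factor of small subunit assembly, had scores of 255 and 41 and 1 copy. An ATAC-seq peak lay at the start sites of all 8 genes in all 3 dTAG47 libraries. Their interactions ran from −0.85 for PPARGC1B to −0.55 for TSR1.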

How the data were processed

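RNA-seq values are read counts per gene for protein-coding genes, which the authors deposited as whole numbers, and 12 libraries entered a single fit. Tools named in the submitters' processing notes are cutadapt, STAR, Bowtie2, featureCounts, MACS2, DESeq2 and DiffBind, with the build hg19. The role and version of each tool, and whether counting used strand, were not given in the sources used here. PRO-seq gene body counts and the score of each ChIP-seq and ATAC-seq peak were also used as the authors deposited them. The 4 PRO-seq columns of gene body density were not used. The peak lists carry no read counts, so their depth is unknown.

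The test was edgeR's quasi-likelihood F-test (edgeR 4.0.16, R 4.3.3), two-sided, after filterByExpr by group and TMM scaling. P-values were adjusted by Benjamini-Hochberg over all genes tested, and 0.05 was the threshold. The contrasts were DTMYC against parental cells in dTAG47, the same in DMSO, and their difference (the interaction). No replicate block was used. CPM use effective library sizes; correlations between libraries use log2 CPM with a prior count of 2; plots add 0.01 CPM. The fit was tested on simulated data. GC content, and the transcript length of the length groups, came from GENCODE v44 on GRCh37. Offsets are natural splines with 5 degrees of freedom, in this GC content and in the gene length given with the authors' counts. Alternatives were other scalings, no filter, the 6 dTAG47 libraries alone, DESeq2 1.42.0, a replicate block, each library left out and, chosen after seeing the data, the GC and length offsets. MYC and ATAC-seq regions were assigned to start sites within 1000 bases. Figures were drawn with matplotlib 3.10.9.

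The members, gene lists and alternatives were chosen with earlier results of these data known. Named are the 10 genes with the largest difference in each direction that pass the threshold, have 5 CPM or more on average over the dTAG47 libraries and have groups that do not overlap. Added are the 6 with the largest interaction in each direction, up to 3 members per list with the smallest adjusted p (the 2 most abundant where none passed), and 7 fixed genes (MYC, MAX, MYCN, SMARCA4, CDKN1A, CRBN and FKBP1A). SMARCB1 was not analysed here. Some genes that the rule picks are not reported here. Intervals and floors cover counting error only. Genes with an overlapping or antisense partner can share reads with it.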

Additional observations from a re-analysis of the deposited data

Results flagged for a closer look

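The line difference departed between dTAG47 and DMSO at 40 of the named or listed genes, by edgeR's test of the interaction with adjustment over all genes. Values are interactions on the log2 scale. They share parental DMSO library 3, which stands apart from its group. Without it, all 159 genes with a called interaction, these 40 among them, were called in the same direction.

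The difference was more negative in dTAG47 at 23 genes. Of ribosome production were USP36 (−0.80), MYBBP1A (−0.76), RRP1B (−0.67), NOL6 (−0.63), TCOF1 (−0.62), IMP4 (−0.59), NOP56 (−0.56), TSR1 (−0.55) and PA2G4 (−0.51). Of metabolism and transport were PPARGC1B (−0.85), SLC19A1, a folate carrier (−0.63), HK2 (−0.57), SORD (−0.47) and GRPEL1, a mitochondrial cochaperone (−0.46). The others were STC2, a secreted stress protein (−1.96), POM121C, whose close copies make it uncertain (−1.33), DDN (−1.20), NEFH (−1.12), TERT (−1.04), MATK (−0.92), NR1D1, a clock repressor (−0.91), TFAP4 (−0.70) and RCC1 (−0.58).

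The difference was more positive in dTAG47 at 17 genes. S100 proteins, annexins and galectins gave S100A14 (1.95), LGALS1 (0.90), ANXA1 (0.85) and S100A16 (0.74). WNT ligands and antagonists gave SOST (0.79), DKK1 (0.72), DKK3 (0.60) and WNT2B (0.41). The others were EPCAM (1.84), ZNF117 (1.48) and SULT1A1 (1.42), both with close copies, TJP3 (1.33), C7orf60 (1.20), TM7SF2 (1.07), ECEL1 (1.06), CDKN2C (0.63) and TAGLN (0.53).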

How the results depend on the processing

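The counts of genes higher and lower in DTMYC cells in dTAG47 stayed within 1.5 times under every alternative, and 2629 genes at least 2-fold higher became 1585 with the GC and length offsets. The call and direction of 146 of 153 named genes held under every alternative. Most of these genes were picked in the main fit for a large difference or a small adjusted p, so this count does not stand for all genes. With those offsets the sign turned for C7orf60 (−0.0049), B2M (−0.16), MAX (0.17) and CRBN (−0.25); the cause was not tested. The share of genes with an ATAC-seq peak in at least 1 of 3 libraries was 77.6% for those at least 2-fold lower (59.9% with all 3) and 88.3% for those at least 2-fold higher (82.0%).

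The count of called interactions depended on most settings. For more positive and more negative genes it was 38 and 25 with RLE factors, 29 and 29 with upper-quartile factors, 52 and 50 without the filter, 941 and 1115 with the offsets, and 330 and 253 with DESeq2, against 80 and 79. Leaving out single libraries gave from 1 to 1122 positive and from 4 to 1295 negative genes, the highest without parental DMSO library 3 and the next, 241 and 308, without parental DMSO library 2. The cause was not tested in any of these.

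Same-numbered DTMYC and parental libraries deviated together with r of 0.059, −0.017 and 0.098, and differently numbered ones with r from −0.098 to 0.046. Such small values do not decide whether replicate numbers pair the libraries. With a replicate block, 5055 genes were higher and 5229 lower, and the interaction was called at 49 and 30 genes. The depth behind the peak lists is unknown, so a missing peak sets no limit.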
